A study of Rattus norvegicus with 8 samples.

Results

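The gene expression of normally loaded rat soleus was described from 3 control arrays of the 8 in the series. They are all the arrays whose labels give rats with 12 h of ordinary cage activity. Each array was hybridised with biotin-labelled cRNA made from 10 microg of total RNA, which was a pool from the soleus muscles of 8 to 10 female rats. The remaining arrays of the series, from rats kept off their hindlimbs with or without later treadmill walking, are not compared here. The labels name neither strain nor age, and the control rats carried no genetic change or treatment that the labels name. An SD over the 3 pools measures the spread between pools, labelling and arrays, not the spread between rats.

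The soleus is a postural muscle of the calf that is active during standing, and in the rat it is made mostly of slow oxidative fibres with a minority of fast oxidative ones. Slow fibres build their sarcomeres from the beta (slow) myosin heavy chain and its own set of light chains and troponins, recover calcium slowly, and burn fatty acids and glucose in abundant mitochondria. Whole muscle also holds blood vessels, connective tissue, nerve, immune cells and blood, so its RNA is a mixture of fibre and non-fibre transcripts.

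The deposited value of a probe set, a group of short probes for 1 transcript, is a MAS5 signal, a brightness on a linear scale. All 8740 probe sets were ranked by their mean signal over the 3 pools, rank 1 being the brightest, and a percentile is the share of probe sets at or below that mean. Probes differ in how strongly they bind, so ranks order brightness and not the amount of mRNA, and the signals of different genes are given side by side without a ratio. Where several probe sets stand for a gene, the brightest is given unless another is named. Sets of 3 values are for pools 1, 2 and 3 in that order. The median signal was 42.4, 40.6 and 38.8 in the 3 pools, and the 100 brightest probe sets held 22.1%, 22.1% and 23.6% of the summed signal. Across all probe sets, Pearson's r of log2 signal was 0.954 to 0.961 for the pairs of pools, as a description over probe sets of the same arrays.

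The 4 markers set for slow muscle were all bright, with ranks from 5 to 121. The fast light chain Myl1 lay in the same range (rank 104), so these ranks do not by themselves separate slow from fast muscle. Myh7, the slow myosin heavy chain, had signals of 5486, 5153 and 5339, a mean of 5326 ± 167 (SD, n = 3) and rank 5. That was the brighter of its 2 probe sets, and the dimmer had a mean of 2692 (rank 161). Fabp3, the fatty acid carrier of heart and slow muscle, had 5045, 5745 and 4677, with rank 9. Myl2, the slow regulatory light chain, had 3238, 3043 and 4111 (rank 98). Tnni1, the slow troponin I that helps switch the thin filament, had 3180.1, 3131 and 3176 (rank 121). Of these genes, Tnni1 was nearly the same in the 3 pools and Myl2 was highest in pool 3. The other probe sets of Myl2 differed more, with 1532, 1648 and 4103 on one and 773, 378 and 1332 on the other, and pool 3 was highest on each.

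Slow contractile and calcium-handling genes were the brightest of the 23 gene lists. Of 17 listed genes 12 were measured, their median percentile was 98.8 against 56.7 for all 4736 named genes, and 9 lay in the brightest decile. The calcium pump of slow and cardiac reticulum, Atp2a2, had 4028, 4632 and 5484 (rank 25), lowest in pool 1 and highest in pool 3, and its 4 probe sets reached down to rank 1182. Mybpc1, the slow myosin-binding protein C, had 4223, 4334 and 4766 (rank 31). Car3, a carbonic anhydrase abundant in slow fibres, had 4632, 4039 and 4275 (rank 39), and both differed little between pools. Myl3, the slow essential light chain, had 4605, 3920.1 and 4217 (rank 43). Csrp3, a Z-disc LIM protein, had 1669.7, 2071 and 2116 (rank 246). Tpm3, the slow tropomyosin, had 627, 713 and 777 (rank 601), and its 5 probe sets reached down to rank 5756. The dimmer members were Myl6b, a slow alkali light chain, with 80.5, 66.2 and 118, and phospholamban (Pln), an inhibitor of the calcium pump, with 26.6, 23.7 and 22.6 (ranks 2816 and 5411).

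Casq2, the cardiac and slow calsequestrin that stores calcium in the reticulum, varied most among the slow genes read on their brightest probe sets. Its signals were 434, 619 and 186 (rank 920), with pool 3 at less than the level of either other pool and a ratio of 3.33 between the highest and the lowest. Casq1, which was paired with it here as the fast counterpart, had 2279, 2393 and 2335 (rank 193), nearly level across the pools (ratio 1.05). Of the slow genes, 11 were at or above the signal filter (26.5, the 40th percentile). On the brightest probe set of each, Casq2 was the only 1 whose pools differed at least 2-fold, a share of 9.09%. Of the 3159 named genes above that filter 11.9% did so, and of all probe sets in the brightest decile 3.43%. The dimmer probe sets of Myl2, given above, also differed widely between pools.

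Fast contractile genes were also bright in this slow muscle. Of 16 listed genes 14 were measured, with a median percentile of 96.3, and 10 lay in the brightest decile. Among the fast myosin heavy chains, the IIa chain Myh2 had 1657, 2044 and 1857 (rank 257), the IIx chain Myh1 had 205, 158 and 166 (rank 1722) and the IIb chain Myh4 had 42.1, 47.4 and 39.3 (rank 4249). The same order of brightness held in every pool. The rank of Myh7 in the single pools was 4, 8 and 14, that of Myh2 285, 232 and 254, that of Myh1 1548, 1875 and 1797 and that of Myh4 4375, 4050 and 4343.

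Fast light chains and troponins ranked high as well. Myl1, the fast essential light chain, had 3287, 3449 and 3569 (rank 104). Myl11, the fast regulatory light chain, had 2849, 3201 and 1143 (rank 188), with pool 3 far below the others (ratio 2.8), and its other probe set had 1579, 2105 and 692, again lowest in pool 3. Troponin I was measured for both fibre types, and the fast Tnni2 had 847, 1251 and 938 (rank 440), highest in pool 2. The fast calcium sensor Tnnc2 had 2622, 3024 and 1388 (rank 192, ratio 2.18), low in pool 3 as Myl11 was. Fast troponin T, Tnnt3, had 2492, 3002 and 2470.1 (rank 164), and the slow forms Tnnt1 and Tnnc1 are not analysed here. The tropomyosin Tpm1 had 2586, 2638 and 2101 (rank 183).

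The remaining fast genes ranged over nearly the whole scale of brightness. Atp2a1, the fast calcium pump, had 874, 1367 and 1339 (rank 390), lowest in pool 1 as Atp2a2 was. Ampd1, the AMP deaminase of muscle, had 819, 857 and 589.8 (rank 564). Pvalb, the cytosolic calcium buffer of IIb and IIx fibres, had 29.4, 88.3 and 75.5 (rank 3412, ratio 3), with pool 1 low. Mybpc2, the fast myosin-binding protein C, was near the bottom at 9.4, 6.9 and 2.4 (rank 7670). Of the isoform families, 7 were measured on both the slow and the fast side, the heavy chains counting once with Myh7 against all 3 fast chains. The slow member had the better rank in 5 of the 7, the exceptions being tropomyosin and calsequestrin. With the median over a gene's probe sets in place of the brightest this fell to 4, as Atp2a2 then had a percentile of 94.7 and Atp2a1 95.5.

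**Figure D1:**
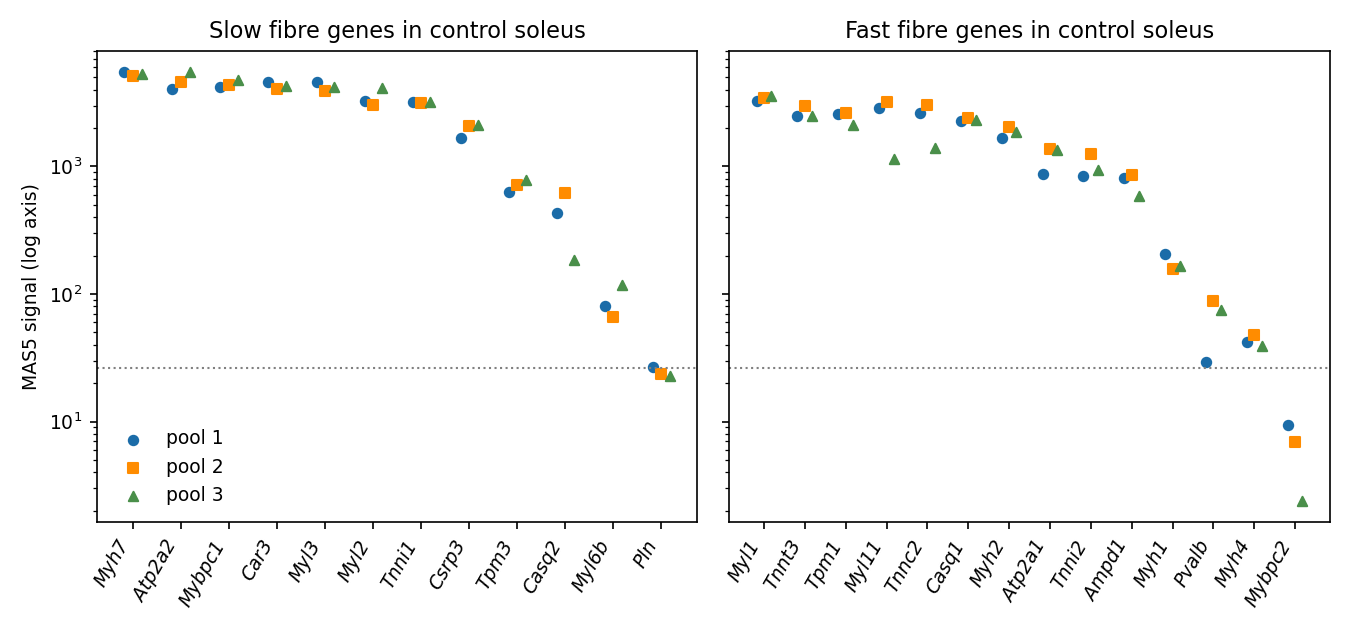
MAS5 signal (log axis) of the 12 slow and 14 fast fibre genes in control soleus, each marker being 1 pool, with genes ordered by mean signal and the dotted line at the signal filter of 26.5. Casq2 on the left and Myl11 and Tnnc2 on the right are the bright genes with pool 3 low, and Pvalb is low in pool 1.

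Developmental and cardiac sarcomere genes had a median percentile of 65.5 (12 of 12 measured), with 3 in the brightest decile. Myh6, the alpha heavy chain of the heart, had 4611, 4576 and 5005 (rank 23), but its 3 probe sets are all of the type that matches a family of sequences, and Myh6 is nearly identical to Myh7, so this signal cannot be given to 1 of the genes. Myh3, the embryonic heavy chain, had 2827, 2342 and 2914 (rank 160) on its brightest probe set and 908, 615 and 952 on the next, while the dimmest of its 5 had rank 4534. Cardiac actin, Actc1, had 1318, 2128 and 1434 (rank 291), highest in pool 2. Chrng, the fetal subunit of the acetylcholine receptor, had 299, 204 and 242, the adhesion molecule Ncam1 102, 89.3 and 107 and cardiac troponin I (Tnni3) 68.9, 33.7 and 46.7. Of the 9 members above the filter, Tnni3 was the 1 that differed at least 2-fold between pools (11.1%, against 11.9% of all named genes).

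Sarcomere and cytoskeleton genes that all fibre types share were bright as well, with a median percentile of 96.0 (15 of 23 measured, 12 in the brightest decile). Ckmt2, the mitochondrial creatine kinase that feeds the phosphocreatine store, had 5331, 5463 and 6236 (rank 3). Cryab, a small heat shock protein that protects desmin and the Z-disc, had 4142, 4388 and 5850.1 (rank 21), highest in pool 3. The titin cap Tcap had 4305, 4298 and 4995 (rank 30). These were followed by Actn2, the Z-disc alpha-actinin, with 3108, 2781 and 3311, and Ldb3, a Z-disc adaptor, with 2354, 3236 and 3139 (ranks 128 and 141). Titin itself (Ttn) had 33.2, 71 and 82.8 (rank 3489), pool 1 being low. It was the single member of 15 with a 2-fold spread (6.67%), against 11.9% of all named genes above the filter. In the brightest decile of probe sets, where 12 of the list lay, the share was 3.43%. Of the excitation and calcium release genes (15 of 25 measured, median percentile 80.7), the sodium pump subunit Atp1b1 was brightest with 3326, 3362 and 2719 (rank 125), followed by the small GTPase Rrad with 1055, 1348 and 1169.8 and the calcium channel subunit Cacng1 with 659, 691 and 818. Fkbp1a, a partner of the calcium release channel, had 754, 594 and 768 and the calcium sensor S100a1 had 661, 719.9 and 719. Clcn1, the chloride channel of the fibre membrane, was dim at 41.9, 57.8 and 27.4. It was the only member of 13 above the filter that differed 2-fold (7.69%, against the same 11.9%).

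Respiratory chain and ATP synthase genes were nearly all bright. Of 63 listed genes 43 were measured, 40 of the 43 lay in the brightest decile, and the median percentile was 97.2. Cox8b, a muscle subunit of cytochrome c oxidase, had 5725, 5936 and 3690 (rank 10), low in pool 3, although its other probe set was highest in pool 3 with 2354, 2307 and 3076. The Rieske subunit of complex III, Uqcrfs1, had 4741, 4795 and 5349 (rank 14). The ADP and ATP exchanger Slc25a4 had 5043, 4527 and 5159 (rank 17). The oxidase subunit Cox6a2 and the ATP synthase subunit Atp5po had ranks 24 and 29, with little spread (4509.5, 4624 and 5038 and 4659, 4271 and 4743). The lowest rank of the list was that of Ndufs1, the largest subunit of complex I, with 44.7, 67.3 and 26.4 (rank 4086).

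Of the 43 respiratory genes, 3 (6.98%) differed at least 2-fold between pools. All of them encode parts of complex I, as do many other measured genes of this list. Over all probe sets in the brightest decile the share with such a spread was 3.43%, and over all named genes above the filter 11.9%. Ndufb9 had 3702, 1071 and 1905 (ratio 3.46), high in pool 1. Ndufs4 had 811, 937 and 345 (ratio 2.71), low in pool 3, and a further probe set for it had 344, 403 and 91.3, low in the same pool. Ndufs1, dim throughout, was also lowest in pool 3. The mitochondrially encoded oxidase subunits, named after their values were seen apart from COX1, were bright too. COX1 had 4587, 4768 and 5067 (rank 20), COX3 had 3635, 3899.9 and 4871 and COX2 had 5380, 2444 and 2799.9, and only COX2 stood high in pool 1.

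Citrate cycle and shuttle genes had a median percentile of 95.2 (19 of 30 measured, 14 in the brightest decile). Idh2, the mitochondrial NADP-dependent isocitrate dehydrogenase, had 3929.8, 3968 and 4316 (rank 56). The cytosolic and mitochondrial malate dehydrogenases Mdh1 and Mdh2 had 3761, 3914 and 4245 and 3672, 3746 and 3959 (ranks 63 and 74). Pdha1, the catalytic subunit of pyruvate dehydrogenase, had 2074, 1869.7 and 2169 and the aspartate aminotransferase Got2 had 2028, 2070.3 and 1939.5. Pools differed little in these enzymes. Pc, the pyruvate carboxylase, was low in pool 1 (20.9, 46.8 and 54.5). It was the single member of 18 above the filter with a 2-fold spread (5.56%), against 11.9% of all named genes above it. Over probe sets in the brightest decile the share was 3.43%.

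Genes of fatty acid uptake and oxidation had a median percentile of 92.3 (34 of 40 measured, 17 in the brightest decile). After Fabp3 came Cpt1b, the muscle enzyme that commits fatty acids to mitochondrial import, with 3243, 3433 and 3641 (rank 102). Next were the thiolase Acaa2 with 2057, 2548 and 2625, lipoprotein lipase (Lpl), which frees fatty acids from blood lipoproteins, with 2172, 2404 and 2194, and Hadhb of the trifunctional protein with 2419, 2423 and 1746 (ranks 187, 201 and 211). Members above the filter were highest in pool 2 in 18 of 33 cases (54.5%, against 29.6% of all named genes), and the list's median in pool 2 was 0.16 (log2) above the mean of the others.

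Cd36, the fatty acid transporter of the cell surface, was among the most variable genes of the muscle. Its signals were 382, 419 and 47.1 (rank 1208, ratio 8.89), so pool 3 stood far below the others. Its other probe set repeated this with 206, 308 and 57.1. Ucp2, an uncoupling protein, had 491, 364 and 214 and the acyl-CoA binding protein Dbi had 529.7, 528 and 259. Both were lowest in pool 3, with ratios of 2.3 and 2.05. The other probe set of Ucp2 had 142, 103 and 97 (ratio 1.47), so it did not reach 2-fold. On the brightest probe set of each gene, Cd36, Ucp2 and Dbi, 9.09% of the 33 above the filter, were all that reached a 2-fold spread. The share was 11.9% over all named genes above the filter. It was 3.43% over probe sets in the brightest decile and 4.81% in the decile below, and this list is a bright one.

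Glucose uptake, glycolysis and glycogen genes were spread more widely, with a median percentile of 86.9 (31 of 39 measured, 14 in the brightest decile). Ldhb, the heart-type lactate dehydrogenase, had 4916, 4906 and 5010.1 (rank 16), with a ratio of 1.02 between the pools. Aldoa, the muscle aldolase, had 4121, 4205 and 4779 (rank 36). Phosphoglycerate kinase, Pgk1, had 2119, 2530 and 1281 (rank 241), lowest in pool 3, and its probe set of middle brightness had 938, 1099.6 and 446, also lowest there. Gyg1, the primer of glycogen synthesis, had 2091, 2129 and 1541 and the muscle phosphofructokinase Pfkm had 1828, 1893 and 1823. The members with a 2-fold spread were Hk1, a hexokinase, and Slc2a5, the fructose transporter. Hk1 had 189.9, 86 and 130.1, low in pool 2, and Slc2a5 had 61.3, 33.6 and 10.2, low in pool 3. They were 7.14% of the 28 members above the filter, against 11.9% of all named genes above it.

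Antioxidant and heat shock genes had a median percentile of 93.4 (25 of 34 measured). Hspb6, a small heat shock protein of muscle, had 4776, 4963 and 5134 (rank 15), the glutathione peroxidase Gpx1 had 4610.3, 4786 and 5053 (rank 19) and Hspb1 had 3862, 4129.8 and 4851 (rank 41). The constitutive chaperone Hsp90ab1 had 4303, 4319.7 and 3585 and Txnip, the thioredoxin-binding protein, had 1899, 2315 and 2383. Sod2, the mitochondrial superoxide dismutase, had 411, 83.6 and 223 (ratio 4.92), high in pool 1 and low in pool 2. It was the single member of 25 with a 2-fold spread (4%). That share was 11.9% over all named genes above the filter and 3.43% over probe sets in the brightest decile. Ribosomal protein and elongation factor genes (40 of 82 measured) had a median percentile of 97.7, led by Rplp0 with 4474, 4503 and 5109 and Rps16 with 4050.2, 4093 and 5064 (ranks 26 and 33), and then Rps29, Rpl19 and Rpl7a (ranks 54, 61 and 76). Rpl11 (3199, 3409.6 and 1547) and Rpl41 (269, 336 and 136) were the members of 40 with a 2-fold spread (5%, beside the same shares). Both were lowest in pool 3.

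**Figure D2:**
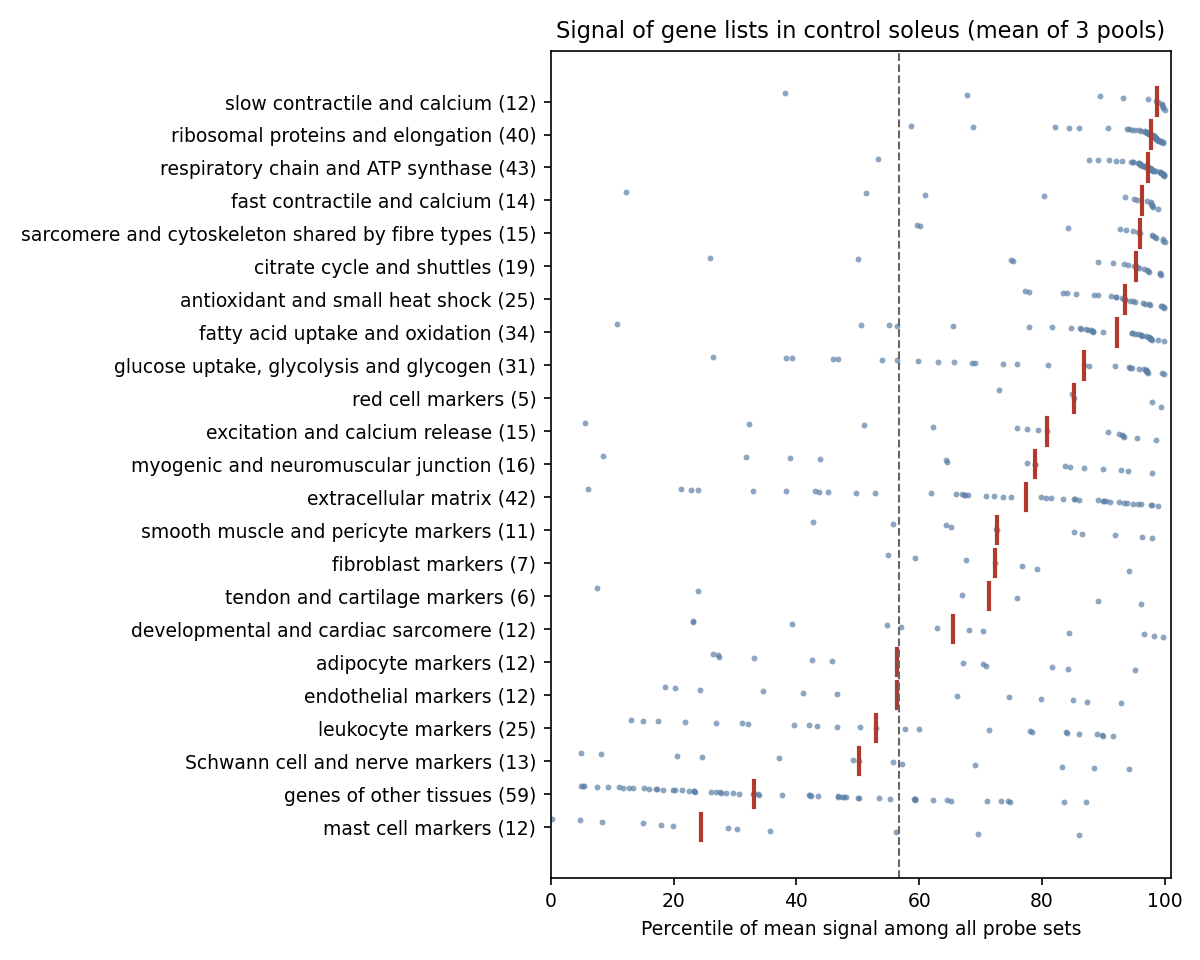
Percentile of mean signal over the 3 control pools among all 8740 probe sets, 1 point per measured gene (number in brackets), with a red bar at each list's median and a dashed line at the median of all named genes, 56.7. Slow contractile genes have the highest median (98.8), and mast cell markers (24.4) and genes of other tissues (33.2) the lowest.

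Beyond these lists, the 20 brightest named genes held a few others. The brightest of all was Myl12a, a regulatory light chain of non-sarcomeric myosin, with 5984, 6049 and 6908 on a probe set of the type shared by several transcripts, while its second had 4178, 5104 and 3122 (rank 49) and was lowest in pool 3. Uqcr11 of complex III had 4874, 5088 and 5744 (rank 6), Ndufb8 of complex I had 4195, 4508 and 5201 (rank 27) and Oaz2, an inhibitor of polyamine synthesis, had 5111, 4906 and 5267 (rank 12). Of the 25 brightest probe sets, 8 carried no single gene name. The 5 steadiest genes in the brightest decile were the mitochondrial chaperonin Hspe1 (734, 737 and 735), the glycolytic pyruvate kinase Pkm (1764, 1764 and 1747), the glutathione transferase Gsto1 (533, 528 and 534), Tnni1, and the phosphatase subunit Ppp1cb (1491, 1497 and 1521).

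Markers of cells other than fibres had lower median percentiles than the slow, fast and shared sarcomere lists, as a description of lists with few genes each. Red cell markers, at 85.2, stood above the excitation and calcium release genes (80.7). The background for reading the marker lists came from 59 genes of tissues such as liver, pancreas, brain and testis. Their median signal was 19.1, and the brightest was the insulin gene Ins2 with 340.3, 258 and 334. Its other probe sets had 13.7, 11 and 11.6 and 4, 2.8 and 6.1, so probe sets for 1 gene gave moderate and very low signals in the same RNA. The next of these genes were Ins1 (289.8, 187 and 217), the liver apolipoprotein Apoc3 (144, 97.9 and 137), the brain glutamate receptor Grin1 (135, 131 and 107) and the lung surfactant protein Sftpb (139, 111 and 99.3). In such bulk samples, fewer cells of a type and less RNA per cell cannot be told apart.

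Extracellular matrix was the brightest of the non-fibre groups with many genes, with a median percentile of 77.4 (42 of 58 measured, 12 in the brightest decile). Col1a1 and Col1a2, the chains of type I collagen, had 3751, 2777 and 3887 and 2247, 1684 and 2778 (ranks 97 and 204). Mgp, an inhibitor of calcification, had 2456, 2314 and 2673 (rank 180). Thbs4, a thrombospondin of muscle and tendon, had 1341, 941 and 1956 (rank 336, ratio 2.08), and the collagen-binding protein Sparc had 1156, 1152 and 1423 (rank 379). In each of these genes pool 3 was highest and pool 2 lowest. Type III collagen (Col3a1, 951, 829 and 1216) and fibronectin (Fn1, 659, 474 and 789.5), named after their values were seen, showed the same order, whereas the proteoglycan Dcn, named likewise, was lowest in pool 1 on its brightest probe set (649.9, 761 and 986).

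Pool 2 was the lowest pool in 27 of the 36 matrix genes above the filter (75.0%), against 30.6% of all named genes above it. Pool 3 was the highest in 24 of the 36 (66.7%), against 38.5%. The latter share rose with brightness, to 42.0% between the 80th and 90th percentiles and 57.1% in the brightest decile. Of the matrix genes 12 lay in that decile. The list's median was 0.23 (log2) lower in pool 2, and 0.25 higher in pool 3, than the mean of the other pools. For all named genes these medians were 0.01 and 0.04, and for the matrix list they were -0.22 and 0.23 after quantile normalization. All 4 probe sets of Col1a1 had pool 2 lowest and pool 3 highest, the dimmer 3 with 1806, 1211 and 2053, 1482, 1048 and 1894 and 1104, 804 and 1555. Dimmer matrix genes with a 2-fold spread did not follow this order: Cd44 (43.8, 37.2 and 16.2), Lama3 (29.4, 42.8 and 16.5) and Vcan (44.4, 26.3 and 20.6) were lowest in pool 3.

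Tendon and cartilage markers showed the widest gap between pools. Thbs4, the collagen-binding proteoglycan Fmod (439, 241 and 497), the cartilage protein Chad (152, 83 and 171) and the tendon and cartilage matrix protein Comp (101, 48 and 107) were all lowest in pool 2 and highest in pool 3, and each differed at least 2-fold (ratios 2.08, 2.06, 2.06 and 2.23). They were 4 of the 4 list members above the filter, where 11.9% of all named genes had such a spread. Fmod's other probe set had 327, 219 and 335, in the same order. The medians over the 4 genes were 0.35, -0.95 and 0.62 (log2) for pools 1, 2 and 3 against the others. Thbs4, Fmod and Comp are in the matrix list too, so the lists are not independent. Col2a1, the cartilage collagen, at 19.2, 5.1 and 13.4, and aggrecan (Acan) at 3, 5.6 and 4.5 were under the filter, and 6 of the 12 listed genes were measured.

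Fast fibre genes moved across the pools in another order. They were highest in pool 2 in 11 of 13 members above the filter (84.6%), against 29.6% of all named genes and 24.3% of those in the brightest decile. Myl1, highest in pool 3, and Myh1, highest in pool 1, were the exceptions. The list's median in pool 2 was 0.27 (log2) above the mean of the others, and 0.29 after quantile normalization. The summed signal of the 6 measured tendon and cartilage markers was 2054, 1324 and 2748 in the 3 pools, that of the 42 matrix genes 19066, 16085 and 22051, and that of the 14 fast genes 20599, 23525 and 18013. Whether the order of the fast genes is linked to that of the tendon and matrix genes was not tested.

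**Figure D3:**
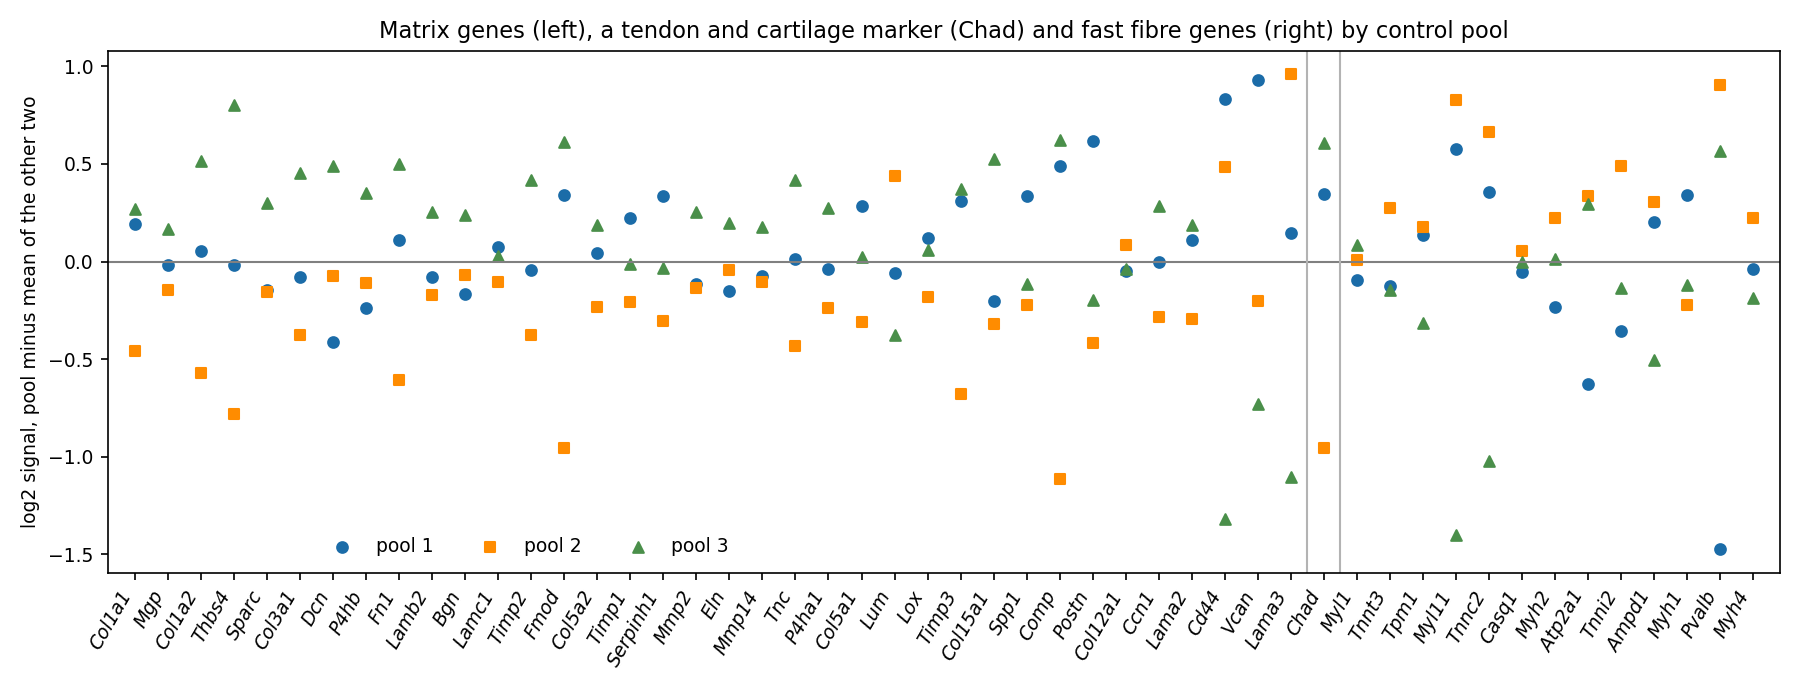
Log2 signal of each control pool minus the mean of the other pools, for the 36 matrix genes, the tendon and cartilage marker Chad and the 13 fast fibre genes above the signal filter, each marker being 1 pool. Pool 2 (squares) is lowest in 27 of the 36 matrix genes and highest in 11 of the 13 fast genes.

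Slow fibre genes gave no such order that held across scalings. Their median in pool 3 was 0.16 (log2) above the others with the deposited values and -0.03 after quantile normalization. Pool 3 was the highest in 57.1% of all named genes in the brightest decile and in 29.4% of those between the 40th and 60th percentiles, so a bright list was often highest there. The respiratory genes were highest in pool 3 in 26 of 43 cases (60.5%), the ribosomal genes in 21 of 40 (52.5%) and the shared sarcomere genes in 9 of 15.

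**Figure D4:**
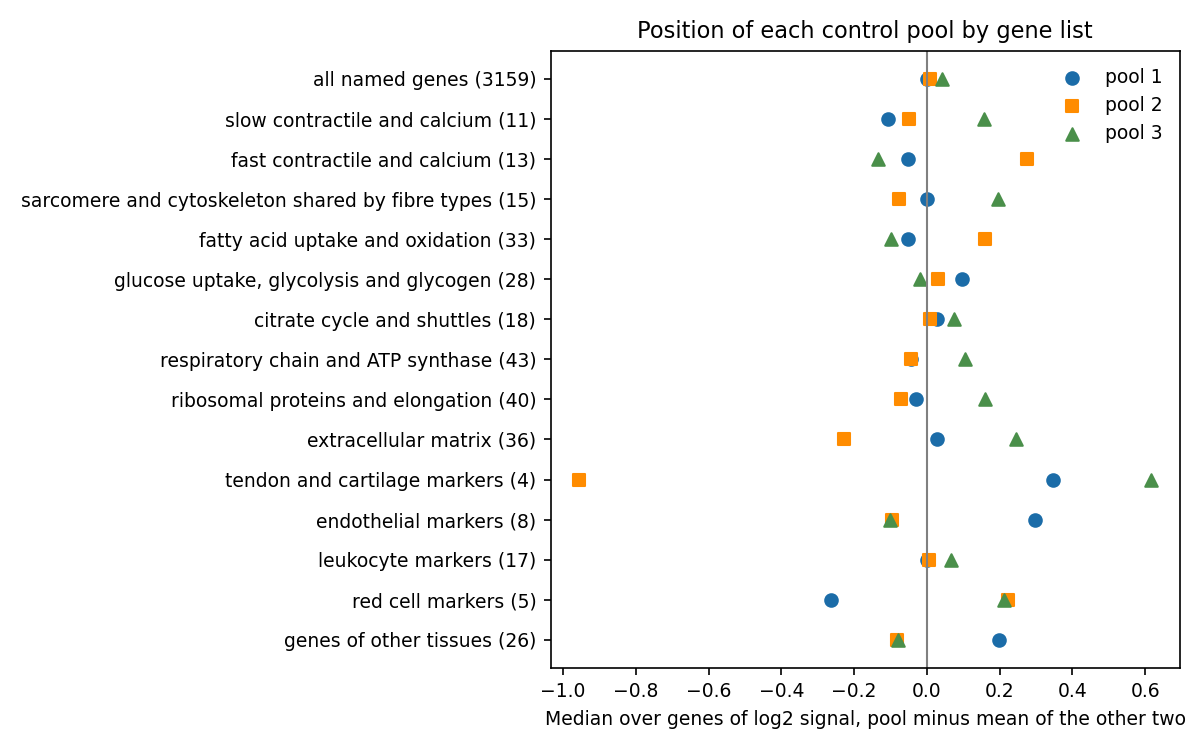
Median over the genes of a list (number above the signal filter in brackets) of log2 signal in a control pool minus the mean of the other pools, each marker being 1 pool. Tendon and cartilage markers span -0.95 to 0.62, the fast contractile list stands at 0.27 in pool 2, and all named genes lie at 0.04 in pool 3.

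Fibroblast markers (7 of 15 measured) had a median percentile of 72.3. Igfbp6, a binding protein for insulin-like growth factors, had 864, 711 and 980.4 (rank 517). The calcium-binding S100a4 had 157, 149.6 and 186, the complement inhibitor Serping1 141, 129 and 153 and the elastic fibre protein Fbln5 114, 113 and 103. The platelet-derived growth factor receptor Pdgfra, which marks resident mesenchymal cells, had 87.5, 87.4 and 87.4, nearly the same in every pool. None of these 7 markers had a 2-fold spread, where 11.9% of all named genes above the filter did.

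Endothelial markers (12 of 22 measured) had a median percentile of 56.4 against 56.7 for all named genes, and of 44.5 against 52.1 with the median over a gene's probe sets. The water channel Aqp1 had 646, 624 and 763 (rank 618), the caveolar coat protein Cav1 392, 352 and 205 and thrombomodulin (Thbd), an anticoagulant receptor, 294, 261 and 230.4. Pecam1, the junction protein of endothelium, was even at 167, 168 and 175, and the growth factor receptor Flt1 had 144, 97 and 136. Nos3, the endothelial nitric oxide synthase, had 114, 100.1 and 32.9 (ratio 3.46) on the brightest of its 6 probe sets, low in pool 3, and 69.3, 58.9 and 56.9 on the next. Pool 1 was the highest in 5 of the 8 markers above the filter. Pool 1 was also the highest in 17 of the 26 genes of other tissues above it (65.4%, against 31.7% of all named genes).

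Smooth muscle and pericyte markers (11 of 15 measured, median percentile 72.7) were led by desmin (Des), which fibres share, with 2429, 2382 and 2290.4 (rank 190). Acta2, the smooth muscle actin, had 1983, 1291 and 1184 on a family-type probe set, highest in pool 1, but 430.5, 601 and 656 and 93.9, 118 and 112 on its others, both lowest in pool 1. The light chain Myl9 had 441, 469 and 807 and the actin-binding Tagln 247, 255 and 371, both highest in pool 3. Abcc9, a subunit of the vascular potassium channel, had 270.4, 292 and 232. None of the 11 had a 2-fold spread, against 11.9% of all named genes above the filter.

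Leukocyte markers (25 of 38 measured) had a median percentile of 52.9. The brightest were the lectin Lgals3 (409, 632 and 630.1), the class II antigen-presenting chain RT1-Da (398, 493 and 434), the complement component C1qb (374, 429 and 488), the class II invariant chain Cd74 (370.3, 355 and 423) and lysozyme (Lyz2, 303, 284 and 242). Cd37 (29.9, 6.2 and 49.3), Cd8b (86.7, 73.3 and 25.1) and Ptprc (61.2, 19.3 and 56.3), the common leukocyte antigen, were dim and differed at least 2-fold, in no shared order. They were 17.6% of the 17 leukocyte markers above the filter, against 11.9% of all named genes above it. Mast cell markers had the lowest median of the lists, 24.4 (12 of 14 measured). Their brightest, the tryptase Tpsb2 (305, 268 and 261) and the chymase Cma1 (118, 85.3 and 81.7), were followed by Tpsab1, Kit and Mcpt1 at 52.9 ± 3.9, 21.5 ± 8.33 and 16.9 ± 11.8 (mean ± SD).

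Red cell transcripts were bright. The beta globin Hbb had 3715, 4538 and 4073 (rank 53) and Hbb-b1 had 2114, 2472 and 2647 (rank 186), both on family-type probe sets that cannot tell the globin copies apart. Hba-a3, an alpha globin gene, had 170, 298 and 304, the haem synthesis enzyme Alas2 233, 269 and 289.9 and the band 3 anion exchanger Slc4a1 118, 133 and 91.1. Pool 1 was the lowest in 4 of these 5 genes, with a median of -0.26 (log2) against the others, where it was lowest in 36.1% of all named genes and in 46.4% of those in the brightest decile.

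Adipocyte markers (12 of 17 measured) had a median percentile of 56.4. Leptin (Lep) had 1096, 942 and 1101 (rank 428) on 1 probe set but 80.2, 60.7 and 57.6 and 29.9, 24.9 and 17.3 on its others, so its level depends on which probes are read. Hormone-sensitive lipase (Lipe) had 270.3, 209 and 245, the fatty acid binding protein Fabp4 92.4, 133 and 81.6 and fatty acid synthase (Fasn) 109.9, 94.3 and 91.9. Cfd, the complement factor adipsin, had 148, 119 and 317 (ratio 2.67), high in pool 3. It was the only 1 of 8 above the filter with a 2-fold spread (12.5%, against 11.9% of all named genes). Schwann cell and nerve markers (13 of 17 measured, median percentile 50.2) were led by the neurotrophin receptor Ngfr with 758, 838 and 970.5 on a family-type probe set and 127, 149.5 and 73.9 on its other. The myelin genes Pmp22, Mag, Cnp, Prx and Mbp followed at means of 360.3, 224, 92.7, 55.4 and 41.2. Of the 8 nerve markers above the filter only Mbp (39.7, 61.3 and 22.5) differed 2-fold, again 12.5%.

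Myogenic regulators and genes of the neuromuscular junction (16 of 22 measured) had a median percentile of 78.9. Myf6, the myogenic factor most abundant in adult fibres, had 839, 843 and 808 (rank 526). Myogenin (Myog) had 454, 414 and 444 (rank 883), and Myod1, which is known as more abundant in fast muscle and was named after its values were seen, had 12.1, 23.5 and 39.8 (rank 5341). Colq, the collagen tail that anchors acetylcholinesterase at the synapse, had 698, 643 and 658, and the receptor subunit Chrna1 had 374, 327 and 205. Pools differed little in Myf6, Myog and Colq. The growth factor receptor Met (31.4, 40.6 and 19.9) was the only member of 13 above the filter with a 2-fold spread (7.69%). Over all named genes above the filter the share was 11.9%.

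How far the pools differed depended first on brightness. A spread of at least 2-fold between the highest and the lowest pool was found for 671 of the 5245 probe sets above the signal filter (12.8%) and for 377 of the 3159 named genes (11.9%). The median SD of log2 signal was 0.65 in the third decile of probe sets by brightness, 0.38 in the fifth and 0.15 in the brightest. The share with a 2-fold spread was 59.6%, 33.9% and 3.43% in the same deciles. In the dimmest decile most values lay under the floor of 4.3 set before taking logs, so its small spread reflects that floor. Most slow, respiratory and ribosomal genes lay in the brightest decile, and most non-fibre markers below it.

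**Figure D5:**
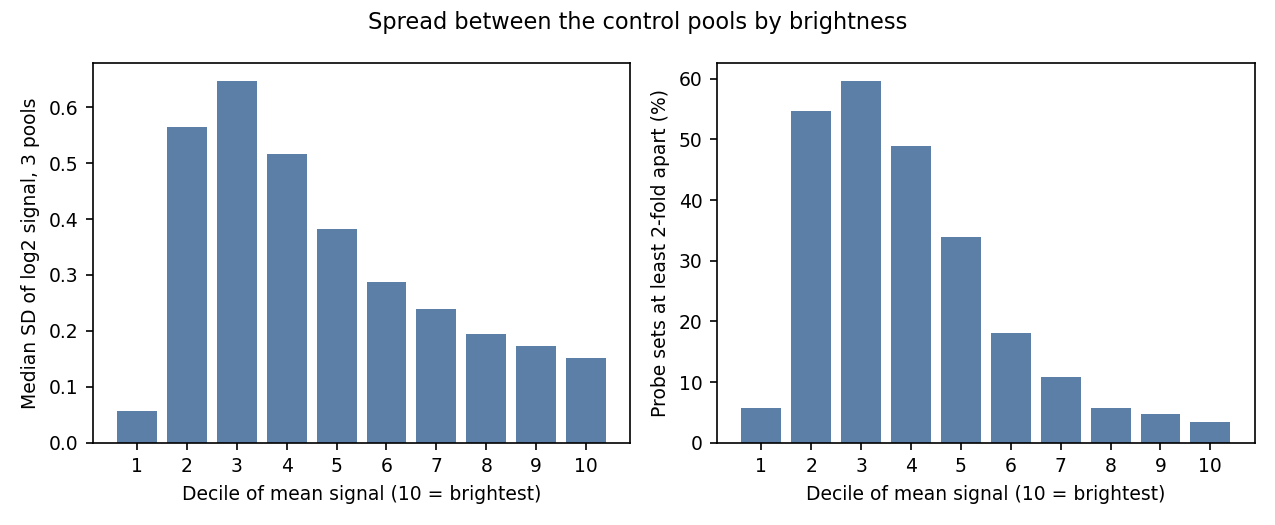
Spread between the 3 control pools for deciles of the 8740 probe sets by mean signal: the median SD of log2 signal on the left and the percentage of probe sets at least 2-fold apart on the right. Both fall from the third decile (0.65 and 59.6%) to the brightest (0.15 and 3.43%), and the dimmest decile is low because most of its values were set to the floor.

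Pool 3 was the pool most often apart. Among named genes with a 2-fold spread, pool 3 lay farthest from the others and below them in 166 (5.25% of those above the filter) and above them in 25 (0.791%). Pool 2 was below in 67 (2.12%) and above in 21 (0.665%), and pool 1 below in 50 (1.58%) and above in 48 (1.52%). Where a probe set had pool 3 low in this way, the other probe sets of the same gene had pool 3 on the lower side in 96 of 149 cases (64.4%, against 45.1% of all named probe sets). With pool 2 low this share was 54 of 73 (74.0%, against 50.0%), and with pool 1 high 30 of 40 (75.0%, against 50.7%). The excess was smaller with pool 1 low (22 of 37, 59.5% against 49.3%) and pool 2 high (7 of 12, 58.3% against 50.0%). It was also smaller with pool 3 high (16 of 24, 66.7% against 54.9%). Probe sets of 1 gene share probes or transcripts and are not independent.

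Bright genes with pool 3 low included Myl11, Tnnc2, Rpl11, Ndufs4, Casq2 and Dbi from the lists. Chosen after their values were seen, Klhl41, a sarcomere assembly protein, had 1779.8, 1971 and 799.7, with 1403, 1419 and 566 on its second probe set, and the mitochondrial import subunit Timm17a had 470.2, 779.7 and 248. The lists as wholes were not all low in pool 3, where the medians of the slow, fast, respiratory and ribosomal lists were 0.16, -0.13, 0.10 and 0.16 (log2). After quantile normalization the same medians were -0.03, -0.11, 0.02 and 0.07, so their size depended on the scaling. What set these transcripts apart in pool 3 was not tested, and RNA quality was not compared here.

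The 15 named genes with the largest spread were mostly dim. Dnah7, an axonemal dynein chain, had 77.9, 47.1 and 5.4 (ratio 14.4), and Kcnmb1, a potassium channel subunit of smooth muscle, had 169, 110.5 and 17.7 (ratio 9.56), with 37.1, 9 and 11.7 on its other probe set. Pool 3 was lowest in Dnah7, Kcnmb1, Cd36, Tspan17, Cyp2b2, Phf7, Ctxn1 and Prim2. Pool 2 was lowest in Crabp1, Cyp27b1, Cd37, Plcd4, Apol3l1, Atp2b2 and Prss1. Their ratios ran from 6.09 to 14.4. Cd36 was the only one with a mean signal above 100 (mean 283 ± 205), and the mean of Kcnmb1 was 99.1 ± 76.4. Among genes of other tissues 8 of 26 above the filter (30.8%) had a 2-fold spread, against 11.9% of all named genes and 33.9% of probe sets in the fifth decile of mean signal, the dimmest above the filter. They were led by the trypsin Prss1 (48.6, 7.8 and 29.3), the kidney phosphate carrier Slc34a1 (103, 55.7 and 21.6), the sperm protamine Prm2 (47.9, 32.6 and 10.3) and the kidney protein Umod (10.9, 30.1 and 44.6).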

How the data were processed

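Total RNA of soleus pools was extracted with Trizol and labelled with biotin for 1-colour arrays, per the labels' protocols. The authors deposited 1 signal intensity on a linear scale per probe set and array, produced by MAS5 according to the submitters' processing notes. MAS5 reduces the probe pairs of a set to 1 value after a background estimate, so low values are noisy. Its version, its scaling target and its detection calls were not given in the sources used here. The 2% trimmed means of the 3 control arrays, 148.7, 148.8 and 148.6, were nearly equal in the deposited intensities. The number of arrays limits the precision.

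Intensities were used as deposited. Ranks and percentiles were taken over all 8740 probe sets. For spread, values under the 10th percentile of the control values (4.3) were set to it before log2, and probe sets with a mean under the 40th percentile (26.5) were left out. Gene symbols came from the platform annotation (7006 probe sets with 1 symbol, 308 with several, 1426 with none), of which 6985 matched the gene table of rat assembly GRCr8 by Entrez identifier. This gave 4736 genes, 1565 of them with several probe sets, and the brightest was kept. Of 679 listed symbols in 23 lists 473 were measured, 3 of them under a newer symbol. No groups were compared, so no test was made.

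Named were the 4 slow fibre markers, every measured member of the slow and fast lists, the 20 brightest genes, in each other list the 5 brightest members and up to 4 with a 2-fold spread, the 15 genes with the largest spread and the 5 steadiest. Other genes named were chosen after their values were seen, as the text says. The control arrays were taken by their label, and the subject, lists and named members were chosen with earlier results of these data known. The work used Python 3.11.15, pandas 2.3.3 and numpy 2.4.6, and the routines were tested on simulated data. Alternatives were 2 scalings between arrays, other floors, filters and ratios, the median over the probe sets of a gene, and leaving out each pool.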

Additional observations from a re-analysis of the deposited data

How the results depend on the processing

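Scaling each array to 1 trimmed mean, or quantile normalization, left the percentiles and the count of probe sets with a 2-fold spread within the spread between pools or within 1.5 times. With the median over a gene's probe sets, the median percentile was 97.6 for slow, 95.3 for fast and 72.9 for matrix genes, against 98.8, 96.3 and 77.4. All named genes went from 56.7 to 52.1, and the lists that moved most were endothelial (56.4 to 44.5), leukocyte (52.9 to 42.0), glucose (86.9 to 77.5) and adipocyte genes (56.4 to 47.1). Ranked only among probe sets above the 40th percentile of mean signal, the slow, fast and matrix medians were 98.2, 95.1 and 70.8. Listed genes under that filter dropped out too, so the medians covered fewer genes. Some lists rose, such as leukocyte (52.9 to 63.4) and mast cell markers (24.4 to 49.3), and others fell, such as genes of other tissues (33.2 to 28.7). The count of 671 probe sets with a 2-fold spread was 2145 with no filter, 216 with a filter at the 60th percentile, 1717 for a ratio of 1.5 and 242 for a ratio of 3. Without 1 pool, which leaves fewer values to differ, it was 250 to 405, with 405 without pool 2, 383 without pool 1 and 250 without pool 3. Of the pool differences by list, a set of values added after seeing the data, 1 moved by more than the list's median SD: slow genes in pool 3 stood at 0.16 (log2) with the deposited values and at -0.03 after quantile normalization, where the cause was not tested. No paired analysis was possible because no groups were compared. The number of pools and the noise of dim signals limit what the spread of a single gene shows.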
